A study of Mus musculus with 6 samples.

Results

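The glutathione S-transferase genes *Gsta3*, *Gsta4*, *Gstm1*, *Gstm2*, *Gstm5*, *Gstp1*, *Gstt1*, *Gstt2*, *Gsto1* and *Mgst1* were examined by RNA-seq in mouse bone marrow mesenchymal stem cells (BMMSCs), the adherent cells grown out of flushed femurs and tibias. These 10 genes were among 36870 gene symbols in the table, and all 10 reached the mean level of 0.1 RPKM that was required for testing, as did 13266 genes in all. The family was chosen by the increase of *Gsta3*, which is among the largest in this same contrast, so the values of *Gsta3* are a description and carry no test. The other 9 genes were listed as relatives of *Gsta3* when results of this contrast were already known, and their counts are given beside the share of all genes that met the same criterion.

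All cells were from C57BL/6 mice, whose age is not given in the sources used here, and were at passage 2 by the labels, whereas the methods name the first passage. The 3 control libraries came from cells that received non-targeting siRNA according to the treatment protocol, and the RNA-seq methods call them vehicle. The 3 siTet1/Tet2 libraries came from BMMSCs given Tet1 and Tet2 siRNAs together, which target a pair of dioxygenases that oxidize 5-methylcytosine in DNA. The siRNAs were applied to the cultured BMMSCs as a whole. No source says whether the 3 libraries of a group came from separate mice or cultures. The p-values therefore measure the spread between these libraries, which may be technical.

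Glutathione S-transferases join the tripeptide glutathione to electrophilic compounds such as lipid peroxidation products, epoxides and drugs, which makes them more soluble and ready for export. The cytosolic enzymes are dimers and fall into classes named by Greek letters, here alpha (*Gsta*), mu (*Gstm*), pi (*Gstp*), theta (*Gstt*) and omega (*Gsto*). *Mgst1* encodes an unrelated, membrane-bound enzyme of the MAPEG family, which also holds enzymes of leukotriene and prostaglandin synthesis. Many transferase genes are known targets of NRF2, a transcription factor that binds antioxidant response elements in their promoters.

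Values are RPKM, which corrects the reads of a gene for both transcript length and library depth, so levels can be set side by side between genes. By a best match of low values to whole reads within a fixed search range, the libraries were estimated to hold between 32300000 and 38600000 reads or read pairs. Among the targets, *Tet2* fell from 2.57, 4.08 and 3.71 RPKM in control to 0.358, 0.238 and 0.202 RPKM after knockdown (limma, adjusted p = 2.88e-05). *Tet1* was too low to be tested, at 0.032 to 0.098 RPKM in control and 0.001 to 0.01 RPKM in siTet1/Tet2 libraries, where 0.001 is the lowest value listed. *Tet3* gave an adjusted p of 0.508. The labelled cell type was checked against markers. All 16 macrophage markers on the list were present, with a summed level of 8925 to 11590 RPKM in control and 16615 to 19511 RPKM in siTet1/Tet2 libraries, much of it *Lyz2*, and 6 of the markers rose, 3 fell and 7 did not pass. The 16 stromal markers, *Col1a1* among them, summed to 1138 to 1645 RPKM in control and 146 to 296 RPKM in siTet1/Tet2 libraries, and 11 of the 13 tested fell. These were therefore cultures with abundant macrophage transcripts, and in such bulk RNA fewer cells of a type and less RNA per cell cannot be told apart. The part of these shifts in the results on the family was not tested.

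The comparison between groups used log2(RPKM + 1) and limma, with Benjamini-Hochberg adjustment over the 13266 genes, and a fold change on this scale understates the change of genes with low RPKM. At an adjusted p under 0.05, 14.7% of all genes tested were higher and 29.8% lower in siTet1/Tet2 libraries. This split depended on scaling, since quantile normalization gave 3607 higher and 2627 lower genes where the RPKM values as deposited gave 1953 and 3952. Of the 9 genes other than *Gsta3*, 4 rose (*Mgst1*, *Gstm1*, *Gstt2* and *Gsto1*), 2 fell (*Gstt1* and *Gstm2*) and 3 did not pass (*Gsta4*, *Gstm5* and *Gstp1*). Quantile normalization left 4 higher and 1 lower. Their median log2 fold change was 0.08, and that of all genes tested was -0.09. The authors called genes altered at a p under 0.05 and a fold change over 2. Here this criterion was put on the limma p before adjustment and a more than 2-fold difference on the log2(RPKM + 1) scale. By it, 0.950% of all genes were higher and 5.63% lower. Of the 9, *Mgst1* and *Gstm1* were higher and 0 lower. This count depended on the pseudocount, since 0.1 or 0.01 RPKM in place of 1 gave 3 higher and 1 lower of the 9, with *Gstt2* (log2 fold change 1.18 at 0.1 RPKM) and *Gstt1* (-1.86) also past it. Of the 13266 genes, 290 were then higher and 1438 lower at 0.1 RPKM, and 368 and 1590 at 0.01 RPKM. Rescaling each library to the same sum gave 2 higher and 1 lower of the 9, and 153 and 1080 of all genes. That sum was above the deposited sums of 393567 to 440433 RPKM, so the added 1 also weighed less, as with a smaller pseudocount. Quantile normalization gave 3 higher and 0 lower of the 9, and 209 and 576 of all genes.

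**Figure D1:**
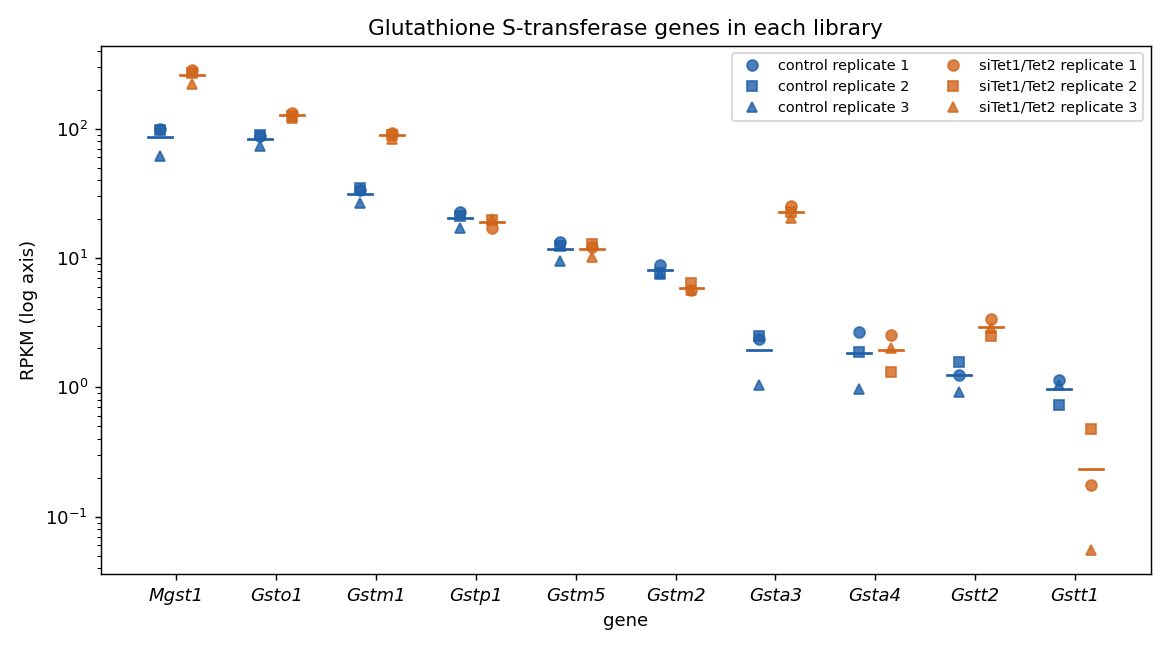
RPKM on a log axis (vertical) of each of the 10 glutathione S-transferase genes (horizontal, ordered by mean control level) in each library. Control libraries are blue and siTet1/Tet2 libraries orange, symbols mark the replicate and short lines the group means. *Mgst1*, *Gsto1*, *Gstm1*, *Gstt2* and *Gsta3* have all orange points above all blue points, *Gstm2* and *Gstt1* have them below, and *Gstp1*, *Gstm5* and *Gsta4* overlap.

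The 2 alpha-class genes differed in their pattern. *Gsta3*, whose enzyme is known in mouse liver for conjugating the epoxide of aflatoxin, was at 2.35, 2.48 and 1.04 RPKM in control and at 25.3, 22.9 and 20.5 RPKM in siTet1/Tet2 libraries. Every siTet1/Tet2 library was far above every control library, with means of 1.96 ± 0.796 and 22.9 ± 2.39 RPKM (SD, n = 3) and a ratio of means of 11.7. The log2 fold change of 3.05 on the log2(RPKM + 1) scale was the highest of the 13266 genes, followed by 2.43 for *Sort1*. With a pseudocount of 0.1 or 0.01 RPKM in place of 1, it came to 3.57 and 3.64. At the estimated depth and the length of the longest coding transcript, these levels stood for an estimated 49 to 127 reads per control library and 1056 to 1410 reads per siTet1/Tet2 library. The gene lengths behind the deposited values are not known, nor whether reads or read pairs were counted.

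*Gsta3* lies on the forward strand of chromosome 1 at 21240589 to 21265661 (GENCODE M21, GRCm38) and *Gsta4* on chromosome 9 at 78182774 to 78209349. *Gsta4*, whose enzyme conjugates the lipid peroxidation product 4-hydroxynonenal, was at 2.70, 1.88 and 0.964 RPKM in control and 2.55, 1.32 and 2.00 RPKM in siTet1/Tet2 libraries. The groups overlapped, with a log2 fold change of 0.08 ± 0.23 (SE) and an adjusted p of 0.804 by limma. In control libraries both genes thus stood at a like level, with a *Gsta3* to *Gsta4* ratio of 0.871 to 1.32, and after knockdown the ratio was 9.93 to 17.3. The remaining alpha-class genes on the list, *Gsta1* and *Gsta2*, were under the minimum for testing, at no more than 0.033 and 0.075 RPKM in any library.

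The *Gsta3* promoter is shown because this gene had the highest increase in a knockdown of enzymes that act on methylated CpG sites. It covers the 250 bases before and the first 50 bases of the transcript (RefSeq, GRCm38.p6) and is set beside the first *Mgst1* promoter, that of the most abundant member. CpG sites are in capitals, and DNA methylation was not measured in these libraries.
Gsta3, chr1:21240335-21240634, forward strand: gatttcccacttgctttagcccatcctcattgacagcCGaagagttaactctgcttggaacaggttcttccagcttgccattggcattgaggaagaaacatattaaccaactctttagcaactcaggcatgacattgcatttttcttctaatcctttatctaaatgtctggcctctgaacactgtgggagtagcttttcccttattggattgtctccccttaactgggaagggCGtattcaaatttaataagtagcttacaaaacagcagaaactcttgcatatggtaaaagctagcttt
Mgst1, chr6:138140277-138140576, forward strand: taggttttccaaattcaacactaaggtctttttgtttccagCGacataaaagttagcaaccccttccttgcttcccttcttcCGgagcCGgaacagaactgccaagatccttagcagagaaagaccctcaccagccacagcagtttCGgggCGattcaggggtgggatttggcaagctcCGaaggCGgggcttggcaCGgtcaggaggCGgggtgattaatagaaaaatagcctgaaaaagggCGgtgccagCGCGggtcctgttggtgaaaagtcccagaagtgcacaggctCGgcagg

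The *Gsta3* window held 2 CpG sites at 41.0% GC and the *Mgst1* window 13 at 53.7% GC. Over all 32851 promoters of the RefSeq table the median was 7 CpG sites, with quartiles of 3 and 20, and the median GC content was 52.7%. The first promoters of the other genes with an entry held 14 (*Gstm1*), 3 (*Gstm2*), 18 (*Gstm5*), 20 (*Gstp1*), 8 (*Gstt1*) and 16 (*Gsto1*) CpG sites. The second promoters of *Gstm1* and *Mgst1* held 8 and 1. No promoter of *Gsta4* or *Gstt2* was used here.

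The same windows were searched on both strands for TGACNNNGC, the core of the antioxidant response element bound by NRF2. It was present in 1 promoter each of *Gsta3*, *Gstm5* and *Mgst1*, beginning 121, 42 and 56 bases before the transcript start. The matches are shown in capitals with 10 bases on either side, 5′ to 3′ along the gene, and the *Mgst1* match lies on the opposite strand, so that it reads as the reverse complement.
Gsta3: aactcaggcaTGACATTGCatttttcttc
Gstm5: caccgcccacTGACCACGCggagggcggg
Mgst1: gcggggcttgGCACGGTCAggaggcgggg

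Of all RefSeq promoters, 12.39% held this core, and 13.99% of the genes had it in at least 1 promoter. Of the 3 genes with a match, among 8 members with a promoter, *Mgst1* rose, *Gstm5* did not pass and *Gsta3* was not tested. The AP-1 motif TGANTCA reads the same on both strands and occurred 1 time each in the promoters of *Gstm5* and *Gstp1*. It was present in 7.81% of all promoters and for 8.97% of the genes. A match is only a run of letters in the window and does not show binding.

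The mu-class genes *Gstm1*, *Gstm2* and *Gstm5* lie in a cluster on chromosome 3, and they differed in direction. *Gstm1*, at 108012255 to 108017973 on the reverse strand, was at 33.5, 34.5 and 26.5 RPKM in control and 93.0, 89.0 and 83.8 RPKM in siTet1/Tet2 libraries. It rose in all siTet1/Tet2 libraries over all controls, from a mean of 31.5 ± 4.35 to 88.6 ± 4.58 RPKM (SD, n = 3), a ratio of 2.81 (log2 fold change 1.47 ± 0.10, limma adjusted p = 1.96e-05). *Gstm2*, at 107981702 to 107986453 on the same strand, was at 8.87, 7.69 and 7.55 RPKM in control and 5.67, 6.41 and 5.62 RPKM in siTet1/Tet2 libraries. It fell without overlap, with a log2 fold change of -0.39 ± 0.09 and an adjusted p of 0.0102 by limma, although after quantile normalization the change was -0.23 and the adjusted p 0.0984.

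*Gstm5*, at 107895821 to 107898686 on the forward strand, was at 13.4, 12.3 and 9.43 RPKM in control and 12.2, 12.9 and 10.1 RPKM in siTet1/Tet2 libraries. The groups overlapped almost wholly (log2 fold change 0.01 ± 0.13, limma adjusted p = 0.952). Within each library, *Gstm1* was 3.51 to 4.49 times *Gstm2* in control and 13.9 to 16.4 times *Gstm2* after knockdown. Reads can be shared between genes. Of the 100-base windows in the longest coding transcript, 7.73% of *Gstm1*, 0.62% of *Gstm2* and 9.34% of *Gstm5* occur in another gene, on either strand. For *Gstm1* these genes were *Gstm2-ps1*, *Gm8834* and *Gstm3*. For *Gstm2* the other gene was only *Gm12499*, and for *Gstm5* only *4933431E20Rik*. The 4 other mu-class genes on the list did not pass the test or were too low for it. *Gstm4* was at 5.27 ± 0.739 RPKM in control and 6.09 ± 0.763 RPKM in siTet1/Tet2 libraries, *Gstm3* and *Gstm7* averaged under 1 RPKM with adjusted p of 0.202 and 0.0786 (*Gstm3* 0.0391 after quantile normalization, *Gstm7* 0.0433 with no filter and 0.0380 after scaling by macrophage markers), and *Gstm6* was not tested.

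Of the theta-class cluster on chromosome 10, *Gstt1* and *Gstt2*, with *Gstt4* between them, moved in opposite directions. *Gstt1*, at 75783813 to 75798584, encodes an enzyme known to act on small halogenated compounds and was at 1.14, 0.724 and 1.04 RPKM in control and 0.175, 0.473 and 0.055 RPKM in siTet1/Tet2 libraries. It fell, and the control mean of 0.966 ± 0.215 RPKM was 4.12 times the siTet1/Tet2 mean of 0.234 ± 0.215 RPKM (log2 fold change -0.68 ± 0.13, limma adjusted p = 0.00390). Few reads lay behind it, an estimated 26 to 47 per control library and 2 to 20 per siTet1/Tet2 library.

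*Gstt2*, at 75831114 to 75837424, was at 1.25, 1.56 and 0.924 RPKM in control and rose to 3.36, 2.50 and 2.87 RPKM in siTet1/Tet2 libraries. The groups did not overlap, and the ratio of means was 2.34 (log2 fold change 0.81 ± 0.13, limma adjusted p = 0.00130). Both theta genes were thus at a like level in control, with a *Gstt2* to *Gstt1* ratio of 0.889 to 2.15, against 5.29 to 52.2 after knockdown. *Gstt3*, next to *Gstt1*, went from 4.06 ± 0.975 to 5.80 ± 0.245 RPKM (log2 fold change 0.44, limma adjusted p = 0.0349), a call that was lost without control replicate 2 (adjusted p = 0.0533) and without siTet1/Tet2 replicate 1, 2 or 3 (0.0728, 0.106 and 0.0660). It was lost as well with no filter on low values (0.0758) and after scaling by macrophage markers (0.0870, with a log2 fold change of 0.29). *Gstt4* was not tested.

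**Figure D2:**
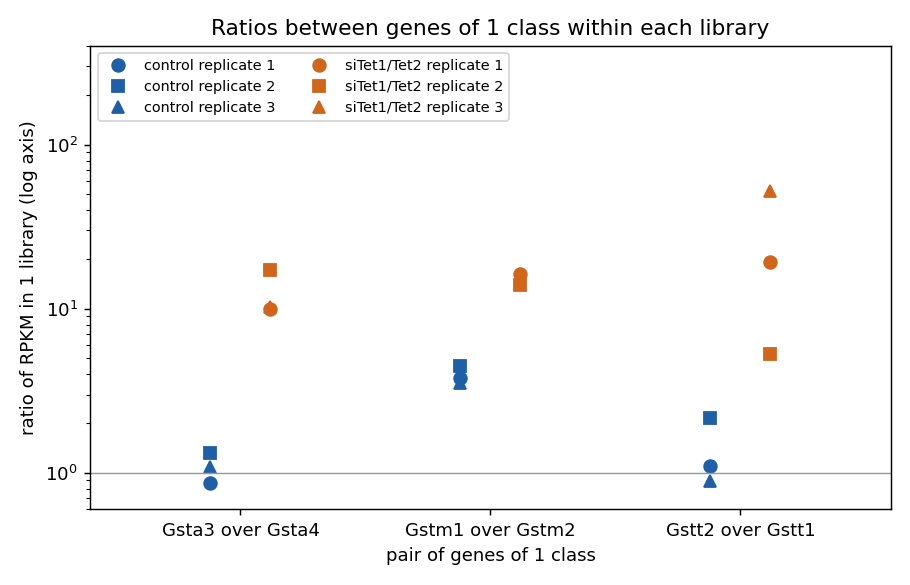
Ratio of the RPKM of 2 genes of 1 class within each library, on a log axis (vertical), for the alpha, mu and theta pairs (horizontal). Control libraries are blue, siTet1/Tet2 libraries orange, and symbols mark the replicate. In each pair the 3 siTet1/Tet2 libraries lie above the 3 control libraries, and the theta ratios are the most spread, from 5.29 to 52.2, over the few reads of *Gstt1*.

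*Gstp1*, the pi-class gene on chromosome 19 at 4035407 to 4037985, was at 22.7, 21.2 and 17.0 RPKM in control and 17.1, 19.8 and 20.1 RPKM in siTet1/Tet2 libraries. The groups overlapped, and the test was not passed (log2 fold change -0.08 ± 0.11, limma adjusted p = 0.584). Its value is uncertain, because 52.77% of its 100-base windows also occur in *Gstp2* or a *Gstp* pseudogene. *Gstp2* itself was at 3.26 ± 0.692 and 3.07 ± 0.497 RPKM, with an adjusted p of 0.760. Scaling each library by its macrophage markers gave *Gstp1* a log2 fold change of -0.26 and an adjusted p of 0.0398.

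*Gsto1*, the omega-class gene, encodes an enzyme with a catalytic cysteine that reduces dehydroascorbate and removes glutathione from proteins. It was at 87.2, 89.4 and 73.6 RPKM in control and rose to 133, 125 and 122 RPKM in siTet1/Tet2 libraries. All siTet1/Tet2 libraries were higher, with a ratio of means of 1.52 (log2 fold change 0.60 ± 0.08, limma adjusted p = 0.000636). Its neighbour *Gsto2*, downstream on the same strand of chromosome 19, rose from 0.621 ± 0.281 to 1.64 ± 0.277 RPKM (adjusted p = 0.00307).

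*Mgst1*, on chromosome 6 at 138140316 to 138156755, encodes a microsomal enzyme with both transferase and peroxidase activity. It was at 99.6, 96.8 and 61.5 RPKM in control and 285, 271 and 221 RPKM in siTet1/Tet2 libraries. It rose in all siTet1/Tet2 libraries, from 86.0 ± 21.3 to 259 ± 33.4 RPKM, a ratio of 3.01 (log2 fold change 1.60 ± 0.18, limma adjusted p = 0.000216). *Mgst2*, a MAPEG relative that can conjugate leukotriene A4, rose by a like log2 fold change of 1.61, from 2.73 ± 0.605 to 10.5 ± 2.74 RPKM (adjusted p = 0.000207). *Mgst3* went from 69.1 ± 18.2 to 103 ± 9.78 RPKM (adjusted p = 0.0277), and that call was lost without siTet1/Tet2 replicate 1 (0.0880) or 2 (0.0864) and with no filter on low values (0.0676).

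In control libraries *Mgst1* (mean 86.0 RPKM) and *Gsto1* (83.4 RPKM) were the most abundant of the 10 genes, and their ranges overlapped. *Gstm1* (31.5), *Gstp1* (20.3), *Gstm5* (11.7) and *Gstm2* (8.04) followed, each with a range clear of its neighbour in this order. *Gsta3*, *Gsta4*, *Gstt2* and *Gstt1*, at 1.96 to 0.966 RPKM, overlapped with one another. After knockdown the order began with *Mgst1*, *Gsto1* and *Gstm1*, whose ranges were apart, and *Gsta3* (22.9 RPKM) had moved next to *Gstp1* (19.01 RPKM), with ranges that did not overlap.

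Of the 9 genes other than *Gsta3*, 4 had all siTet1/Tet2 libraries above all controls and 2 had all below, where 19.8% and 35.9% of all genes tested did so. The same libraries were low for most members. Control replicate 3 held the lowest control value for 9 of 10 members, and for 37.6% of all genes tested, and siTet1/Tet2 replicate 3 the lowest of its group for 7 of 10, and for 27.6% of all genes. These libraries also had the lowest macrophage marker sum of their group (8925 and 16615 RPKM) and the highest stromal marker sum (1645 and 296 RPKM). Their RPKM summed over all rows was the lowest of their group as well (393567 and 423889). Whether the markers or this sum bear on the member levels was not tested.

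The 24 glutathione transferase enzyme genes of the list, the 10 members among them, summed to 390, 380 and 278 RPKM in control and 743, 710 and 629 RPKM in siTet1/Tet2 libraries. The sum took the genes named *Gst* or *Mgst* other than *Gstcd*. It left out *Hpgds*, the sigma-class gene, at a mean of 57.3 RPKM in control and 55.4 RPKM in siTet1/Tet2 libraries. The sum is a description, since it holds *Gsta3*. *Mgst1* made up 22.1% to 25.6% of it in control and 35.2% to 38.3% after knockdown, and *Gstm1* 8.59% to 9.55% and then 12.5% to 13.3%. *Gsta3* went from 0.374% to 0.652% of the sum to 3.22% to 3.40%, so that the gene with the highest fold change remained a small part of this sum. The shares of *Gsto1* (22.4% to 26.5%, then 17.7% to 19.4%) and *Gstp1* (5.57% to 6.12%, then 2.30% to 3.20%) were lower after knockdown, although *Gsto1* itself rose.

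**Figure D3:**
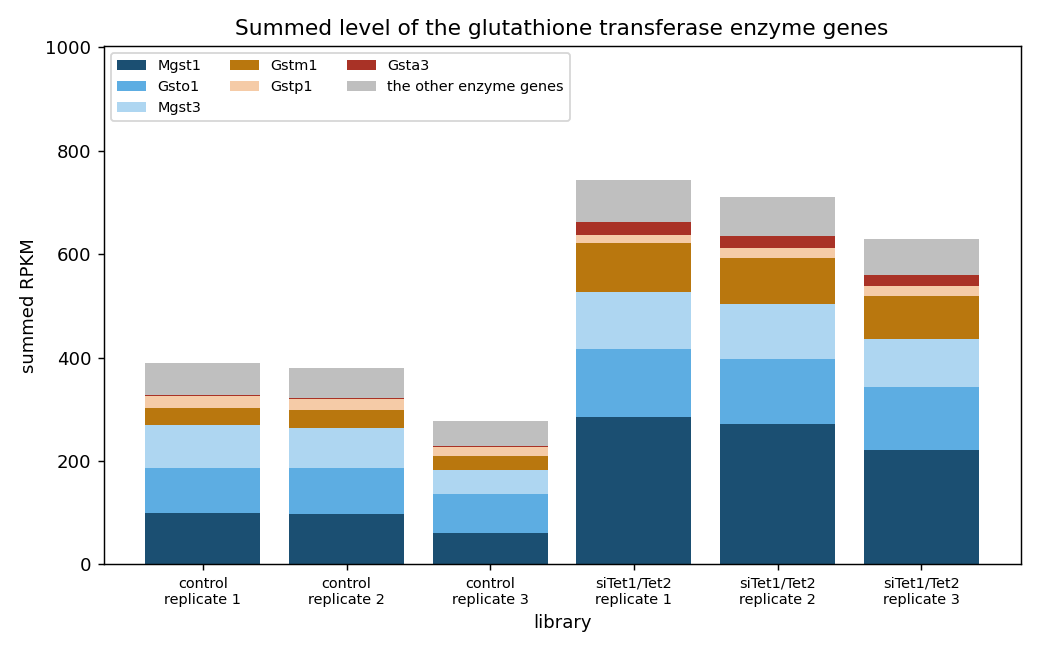
Summed RPKM (vertical, from 0) of 24 glutathione transferase enzyme genes in each of the 6 libraries (horizontal), with the part of each of 6 genes as a coloured segment and all others in grey. The control bars reach 278 to 390 RPKM and the siTet1/Tet2 bars 629 to 743 RPKM, and the *Mgst1* segment takes 22.1% to 25.6% and 35.2% to 38.3% of the bar.

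The rest of the transferase and MAPEG genes were taken from a list of 21, of which 15 were tested. Of these, 6 rose (*Mgst2*, *Gstk1*, *Gsto2*, *Mgst3*, *Gstt3* and *Alox5ap*), 2 fell (*Ptges* and *Gstcd*) and 7 did not pass, with a median log2 fold change of 0.21. Among all genes tested, 14.7% were higher and 29.8% lower, with a median of -0.09. *Gsta13* and *Gstp3* were not analysed here. Without siTet1/Tet2 replicate 2, 3 genes of this list were higher instead of 6, with *Alox5ap* lost (adjusted p = 0.0509) beside *Mgst3* and *Gstt3*. *Gstk1*, the kappa-class enzyme of mitochondria and peroxisomes, rose from 7.17 ± 1.27 to 12.9 ± 1.53 RPKM (adjusted p = 0.00170). *Gstz1*, the zeta-class enzyme of tyrosine breakdown, was at 9.49 ± 0.876 and 11.4 ± 1.27 RPKM with an adjusted p of 0.0907. It passed with the replicate number as a block (0.0423), after median ratio scaling (0.0359) and after quantile normalization (0.0176).

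The eicosanoid enzymes of this list did not move as one. *Alox5ap*, which presents arachidonic acid to 5-lipoxygenase, rose from 292 ± 39.0 to 384 ± 12.04 RPKM (adjusted p = 0.0127). *Ptges*, the microsomal prostaglandin E synthase, fell from 2.66 ± 0.285 to 1.503 ± 0.255 RPKM (adjusted p = 0.00343). *Hpgds*, the prostaglandin D synthase of the sigma class, was at 57.3 ± 4.85 and 55.4 ± 7.16 RPKM (adjusted p = 0.713), and *Ltc4s*, the leukotriene C4 synthase, at 6.96 ± 0.747 and 8.40 ± 2.35 RPKM (adjusted p = 0.373, and 0.0184 without siTet1/Tet2 replicate 3, with a log2 fold change of 0.43 in place of 0.21). *Gstcd*, named for a transferase-like domain, went from 4.29 ± 0.528 to 3.24 ± 0.351 RPKM (adjusted p = 0.0414). That call was lost without control replicate 1 or 3 (0.0799 and 0.101), without siTet1/Tet2 replicate 1 or 2 (0.141 and 0.0909), and after median ratio scaling or quantile normalization (0.0805 and 0.236), and with no filter on low values (0.0834).

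**Figure D4:**
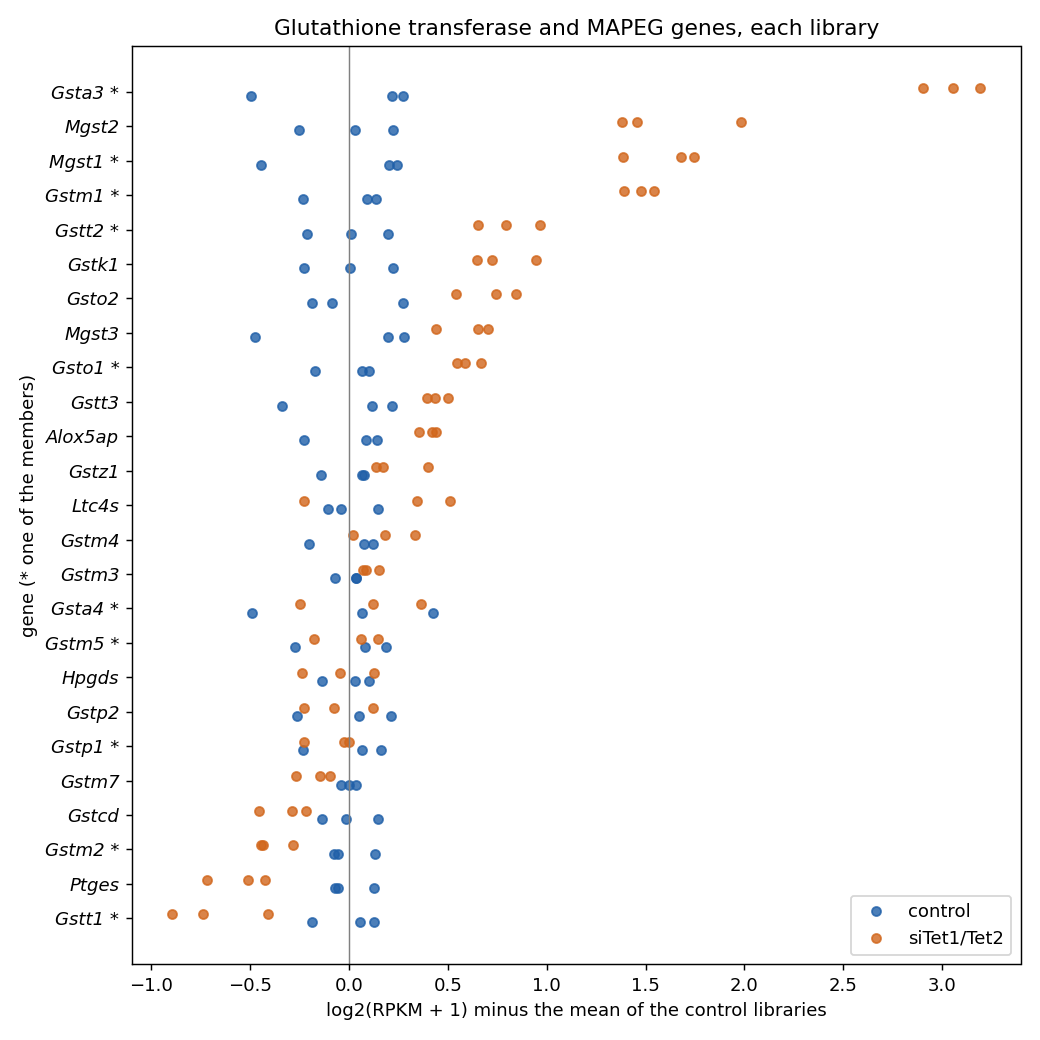
log2(RPKM + 1) minus the mean of the control libraries (horizontal) for the 10 members, marked by an asterisk, and 15 further transferase and MAPEG genes (vertical, in order of mean difference). Each point is 1 library, control in blue and siTet1/Tet2 in orange. *Gsta3* lies farthest to the right at a mean of 3.05, *Mgst2* and *Mgst1* follow at 1.61 and 1.60, and *Gstt1* lies farthest to the left at -0.68.

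Glutathione itself is made in 2 steps, by glutamate-cysteine ligase and glutathione synthetase, and kept reduced by glutathione reductase. Of 27 genes of glutathione synthesis, breakdown, NADPH supply and transport, 25 were tested. Of these, 11 rose, 6 fell and 8 did not pass, with a median log2 fold change of 0.11. For comparison, 14.7% of all genes tested were higher and 29.8% lower. *Gclm*, the modifier subunit of the ligase, rose from 80.6 ± 10.2 to 207 ± 10.5 RPKM (log2 fold change 1.36, limma adjusted p = 2.23e-05). The catalytic subunit *Gclc* went from 33.9 ± 1.48 to 44.5 ± 6.50 RPKM (adjusted p = 0.0155), and to an adjusted p of 0.0536 without control replicate 2 and 0.126 after scaling by macrophage markers (log2 fold change 0.19 in place of 0.37).

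*Gss*, the synthetase, moved the other way, from 19.7 ± 1.48 to 15.2 ± 1.49 RPKM (adjusted p = 0.0129). That call was lost without siTet1/Tet2 replicate 1 (0.0532) or 2 (0.0509) and after quantile normalization (0.0664). *Gsr*, the reductase, rose from 75.5 ± 5.73 to 140 ± 5.46 RPKM (adjusted p = 4.30e-05), and so did *Idh1*, an NADPH source (log2 fold change 1.07). The 2 largest decreases were in *Dpep1* (-1.59), a dipeptidase that acts on glutathione breakdown products, and *Chac1* (-1.25), which degrades glutathione inside the cell. *Slc7a11*, the cystine importer, and *Abcc1*, an exporter of glutathione conjugates, did not pass (adjusted p = 0.719 and 0.222), although both passed after quantile normalization (0.0199 and 0.0250) and *Abcc1* also after median ratio scaling (0.0381).

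Of 17 glutathione peroxidase and redox genes, 14 were tested, and 5 rose, 4 fell and 5 did not pass. The share of all genes tested was 14.7% higher and 29.8% lower. *Gpx1*, the abundant cytosolic peroxidase, rose from 213 ± 29.5 to 400 ± 45.0 RPKM (adjusted p = 0.000498), and *Ethe1*, a mitochondrial persulfide dioxygenase, by a log2 fold change of 1.02. The peroxidases of the endoplasmic reticulum fell, *Gpx8* from 40.9 ± 4.93 to 11.2 ± 3.55 RPKM (adjusted p = 0.000208) and *Gpx7* from 6.98 ± 1.46 to 1.44 ± 0.320 RPKM (adjusted p = 7.71e-05). *Gpx4*, which reduces lipid hydroperoxides in membranes, went from 49.4 ± 13.3 to 70.2 ± 5.81 RPKM (adjusted p = 0.0425). Leaving out control replicate 2 or siTet1/Tet2 replicate 1 or 2 gave *Gpx4* an adjusted p of 0.0541, 0.116 and 0.122. The call was also lost with no filter on low values (0.0941), with eBayes without trend (0.0512) and after scaling by macrophage markers (0.0760).

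Of 13 NRF2 pathway genes, all tested, 6 rose and 4 fell, where 14.7% of all genes tested were higher and 29.8% lower. *Gclm* and *Hmox1* (log2 fold change 0.96, adjusted p = 0.000284) were the largest increases, and *Nqo1* (-0.72, adjusted p = 0.0349) and *Me1* (-0.67) the largest decreases. *Gclm* was also counted among the glutathione supply genes, so the counts of these lists overlap. The *Nqo1* call was lost without control replicate 1 or 2 (0.0862 and 0.119), without siTet1/Tet2 replicate 1 or 2 (0.0916 and 0.0529) after quantile normalization (0.0721) and with no filter on low values (0.0810). *Nfe2l2*, which encodes NRF2, did not pass (-0.07, adjusted p = 0.331), but had a log2 fold change of -0.26 and an adjusted p of 0.0103 after scaling by macrophage markers. *Keap1*, which encodes its inhibitor, had a log2 fold change of -0.19 with an adjusted p of 0.0443, and of 0.0506 with the replicate number as a block, and leaving out any library but control replicate 3 gave 0.0553 to 0.140. Median ratio scaling, quantile normalization and eBayes without trend gave *Keap1* 0.186, 0.536 and 0.0508.

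Of 16 other conjugating and detoxifying genes, 14 were tested, and 5 rose and 4 fell, beside 14.7% higher and 29.8% lower of all genes tested. *Sult1a1*, a sulfotransferase, rose by a log2 fold change of 1.26 and *Aldh2*, the mitochondrial aldehyde dehydrogenase, by 0.97. *Cyp1b1*, a cytochrome P450, decreased by 2.24 on that scale and *Ephx2*, the soluble epoxide hydrolase, by 0.62, the latter with an adjusted p of 0.0589 without control replicate 1 and 0.0588 without control replicate 2, 0.0546 with no filter on low values and 0.0861 after quantile normalization.

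**Figure D5:**
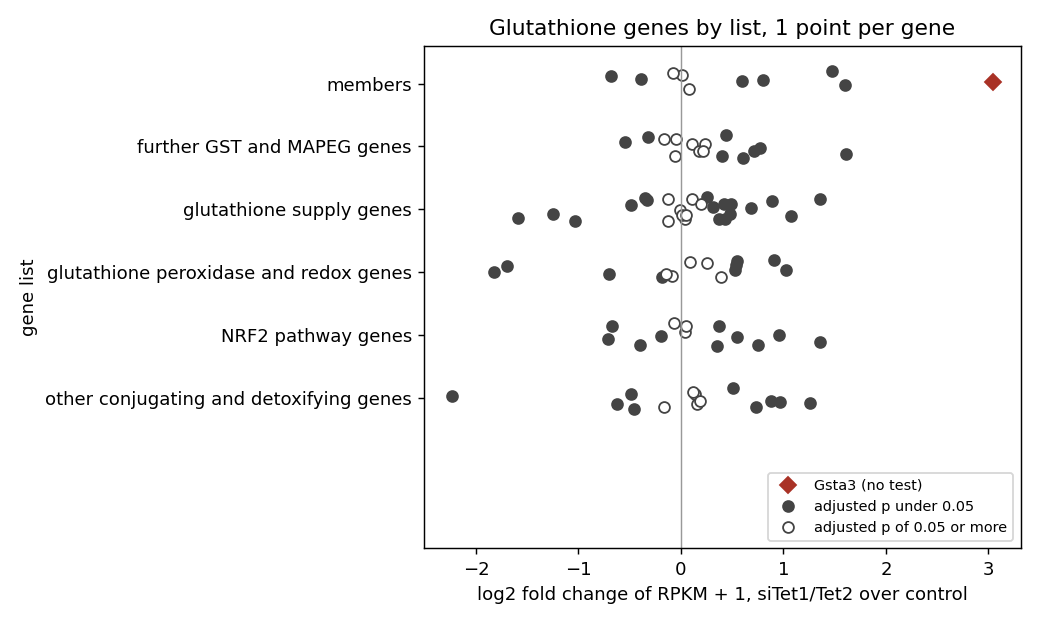
log2 fold change of RPKM + 1 (horizontal, siTet1/Tet2 over control) of each tested gene in 6 lists (vertical, points spread for visibility). Filled points have an adjusted p under 0.05, open points do not, and the red diamond is *Gsta3*, which was not tested. Every list has filled points on both sides of 0, with medians between 0.05 and 0.21 for the 5 lists other than the members.

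The 5 genes most like *Gsta3*, among 11067 compared by the root mean square difference of log2 values centred on each gene's mean over the 6 libraries, were *Mmp8* (0.371), *Apoc2* (0.378), *Sort1* (0.382), *Serpinb2* (0.425) and *F7* (0.496). This measure includes the group difference by which *Gsta3* was chosen. *Sort1*, *Serpinb2*, *Mmp8* and *Apoc2* also ranked 2 to 5 by log2 fold change, so the likeness is a description and no separate result. *Mmp8*, a neutrophil collagenase, was at 4.41, 4.35 and 2.67 RPKM in control and 25.1, 23.3 and 19.9 RPKM in siTet1/Tet2 libraries. Like *Gsta3*, it was lowest in replicate 3 of both groups. Of 5 neutrophil markers, *S100a8* was the only one tested and rose from 1.95 ± 0.233 to 12.7 ± 3.44 RPKM, while *S100a9* was listed at 0.001 RPKM in all 6 libraries and *Ly6g*, *Elane* and *Mpo* reached no more than 0.113 RPKM in any. The 5 adipocyte markers summed to 245 to 301 RPKM in control and 546 to 703 RPKM after knockdown, and all 4 tested rose. Most of this sum was *Fabp4*, at means of 277 and 616 RPKM, while *Adipoq* averaged 3.35 and 7.60 RPKM. The 4 endothelial markers summed to 2.04 to 2.58 and then 1.21 to 1.34 RPKM, with 1 of 3 tested higher and 1 lower. The 5 hepatocyte markers summed to no more than 0.061 RPKM in any library.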

How the data were processed

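Total RNA of 3 control and 3 siTet1/Tet2 BMMSC samples was sequenced as paired-end reads of 100 bases. After adaptor trimming, the authors mapped to GRCm38 and quantified genes in DNASTAR Lasergene 15.0. The deposited values are linear RPKM, named FPKM in the methods. The annotation, strand setting and treatment of multiply mapped reads are not given in the sources used here. The deposited p-value column, the authors' own comparison, was not used. The table had 36915 rows, of which 18360 stood at 0.001 RPKM in all libraries. Duplicate rows of 37 symbols were reduced to the one with the highest mean.

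Genes averaging 0.1 RPKM or more were tested on log2(RPKM + 1) with limma 3.58.1 in R 4.3.3 (eBayes with trend, two-sided, Benjamini-Hochberg adjustment), and the script was tested on simulated data. An exact permutation test of 1 gene, at 3 against 3, has a smallest p of 0.1. The members, gene lists and naming rule were chosen with earlier results of these data known. The rule named all members and further transferase and MAPEG genes, 12 fixed glutathione and NRF2 genes, the 2 largest increases and decreases past the threshold of each other pathway list, and the 5 genes most like *Gsta3* among those with a mean of at least 1 RPKM. *Adgre1* was matched by its RefSeq synonym *Emr1*.

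Depth was estimated in Python 3.11.15 as the read number, within a fixed search range, at which low RPKM values lay closest to whole reads. A depth outside that range could not be found. Between 55.8% and 62.4% of them lay within 0.1 of a whole read, against 20% by chance at a depth fixed beforehand, and the depth was picked for its match, so no count test was run. Promoters (RefSeq, GRCm38.p6) were found for 8 of the 10 members. Deviations of same-numbered libraries from their group means correlated across genes at 0.149, 0.117 and 0.462, all above 0.1, so replicate numbers were used as pairs in a further fit. That rests on the data alone, since no source says what a number marks. Control replicate 1 with siTet1/Tet2 replicate 2 reached 0.332, and control replicate 2 with siTet1/Tet2 replicate 1 reached 0.205. Both are above the 0.149 and 0.117 of the same-numbered libraries, so the data do not settle the pairing. The alternatives were 2 pseudocounts, 2 filters, 3 scalings, eBayes without trend, summed rows, the block, each library left out and, chosen after seeing the data, scaling by macrophage markers.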

Additional observations from a re-analysis of the deposited data

How the results depend on the processing

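The number of members that rose was 4 under all 17 alternatives, and no named gene with an adjusted p under 0.05 changed direction. The number that fell (2) was 1 with a mean of at least 1 RPKM, a filter that removes *Gstt1*, and 1 after quantile normalization, which lost *Gstm2*, and 3 after scaling by macrophage markers, which added *Gstp1*. For the further transferase and MAPEG genes, the 6 increases became 3 to 6 and the 2 decreases 1 to 2 when single libraries were left out. The increases were 7 and the decreases 1 after median ratio scaling, and 8 and 1 after quantile normalization. Scaling by macrophage markers gave 5 and 3. Over all 17 alternatives the increases ranged from 3 to 8 and the decreases from 1 to 3. With the replicate block, 4 members rose and 2 fell, and among the genes named in the report the block changed a call only for *Gstz1* and *Keap1*. The direction of *Gsta4*, *Gstm5*, *Gstp1*, *Gstp2*, *Hpgds*, *Slc7a11*, *Abcc1* and *Nfe2l2*, which did not pass, depended on the setting. Over all genes, quantile normalization gave 3607 increases in place of 1953 and 2627 decreases in place of 3952, and scaling by macrophage markers, added after seeing the data, gave 1059 and 6031. Over all genes the median log2 fold change was -0.09, and 0.06 and -0.23 under these scalings. Genes past the fold criterion numbered 126 higher and 747 lower, against 290 and 1438 with a pseudocount of 0.1 and 368 and 1590 with 0.01, 162 higher after median ratio scaling, and 209 higher after quantile normalization and 76 after scaling by macrophage markers. The cause of these differences was not tested. *Gstt1* rested on the fewest reads of the members.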
